A study of Mus musculus with 5 samples.

Results

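Arterial endothelial cells of the mouse heart were studied in 5 single-cell libraries. Each member was a cell barcode whose raw unique molecular identifier (UMI) counts met a fixed rule. Mitochondrial genes made at most 10% of its UMIs, the endothelial genes Cdh5 and Pecam1 summed to at least 2 UMIs, and Stmn2, Hey1, Gja4 and Gja5 summed to at least 2. The endocardial genes Npr3 and Cytl1 were at 0, Cxcl9 and Cxcl10 summed to fewer than 5, Dcn and Col1a1 to at most 3, and Cd3e, C1qa and Cd79a to at most 1. The rule found 2664 cells among 38337 barcodes that passed the mitochondrial limit and 47319 deposited barcodes. They were a subset of 11646 endothelial cells, which had the same limits on Cdh5, Pecam1, fibroblast and leukocyte genes. The nearest comparison class was 5580 capillary cells, which had no UMI of the 4 arterial genes, at least 3 UMIs over Car4, Rgcc and Gpihbp1 and at most 1 over Vwf and Vcam1.

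Controls were 4 mice, sequenced as 2 libraries (replicates 1 and 2), of genotype Ctla4+/+Pdcd1-/-, and the disease group was 10 mice, sequenced as 3 libraries (replicates 3, 4 and 5), of genotype Ctla4+/-Pdcd1-/-. The series describes the second genotype as a model of myocarditis from immune checkpoint inhibitors, drugs that block CTLA-4 or PD-1. Both groups carry the Pdcd1 deletion, so the groups differ in the number of intact Ctla4 copies and neither is wild type. The genotype labels of control replicate 2 and disease replicate 4 read Pdcd2-/- and that of disease replicate 5 reads Pdcd3-/-, and the stain label counts up from DRAQ5 to DRAQ9 over the 5 libraries, whereas the series text names Pdcd1-/- and DRAQ5 throughout. Hearts were digested and pooled before cells were sorted as DRAQ5+DAPI-, so the libraries and not the mice are the replicates, and p-values measure the spread between libraries. The ages of the mice and which mice entered which library are not given in the sources used here.

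Arteries carry blood from the heart at high pressure, and their inner lining is set apart from capillary and vein endothelium by Notch signalling and SoxF transcription factors. In arterial endothelium the ligands Dll4 and Jag1 activate Notch receptors, which act with Rbpj to switch on targets such as Hey1, while Gja4 and Gja5 encode the connexins 37 and 40 of arterial gap junctions. Capillary endothelium of the heart is specialised instead for the transfer of fatty acids to muscle, through proteins such as Cd36, Fabp4 and Gpihbp1.

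Control replicate 1 gave 542 and control replicate 2 gave 548 arterial cells, against 602 from disease replicate 3, 297 from disease replicate 4 and 675 from disease replicate 5. Their summed counts ranged from 1131076 UMIs in disease replicate 4 to 3035304 UMIs in disease replicate 5, and the median depth per cell from 3033 UMIs in disease replicate 4 to 4228 UMIs in control replicate 1. Between 86 and 161 barcodes were shared by each pair of libraries. The targeted genes are mainly lymphocyte genes: Ctla4 had 8 and 0 UMIs in the arterial cells of the controls and 4, 8 and 4 in those of the disease libraries, and Pdcd1 had 10 and 0 against 0, 9 and 2. Over all retained cells, Ctla4, the gene that sets the groups apart, was at 33.1 and 1.43 counts scaled to a common library total (CPM) in the libraries with 2 intact copies, and at 5.79, 162 and 51.8 CPM in those with 1. Its level thus did not order the libraries by genotype, and disease replicates 4 and 5 were above both controls. Pdcd1, deleted in both groups, gave 45.9 and 3.12 CPM per control library and 7.4, 264 and 78.6 CPM per disease library, so its transcript was counted in libraries of both groups. Neither gene checks the labels here, and the parts of the 2 genes that were deleted are not given in the sources used here.

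The rule rested mainly on Stmn2, which encodes stathmin 2, a microtubule regulator. A Stmn2 UMI was found in 87.7% of the arterial cells, against 0.709% of fibroblasts and 0.654% of leukocytes, defined by Dcn and Col1a1 or by Cd3e, C1qa and Cd79a. Hey1, a Notch target and transcriptional repressor, had a UMI in 50.8% of arterial cells, 5.28% of fibroblasts and 0.208% of leukocytes. Gja4 was found in 28% of arterial cells, 6.75% of fibroblasts and 0.357% of leukocytes. Gja5 was found in 11.3% of arterial cells, 0.118% of fibroblasts and in 0 of 3362 leukocytes. The median depth was 3783 UMIs in arterial cells, 5707 in fibroblasts and 4121 in leukocytes. Stmn2 alone brought 38.4% of the members to the threshold, and 47.8% had UMIs of only 1 of the 4 genes. These shares describe the rule and are no test of it.

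At the threshold of the rule, 763 members (28.6%) had exactly 2 UMIs over the 4 genes, and 1579 cells just outside it had 1. Levels of genes that the rule did not read are given as mean CPM over the 5 libraries with the SD between them. Sox17, a SoxF factor of arterial endothelium, was at 138 ± 21.1 CPM in capillary cells, 190 ± 26.1 in cells with 1 UMI, 216 ± 31.6 in members with exactly 2 and 306 ± 24.1 in members with 3 or more. Alpl, tissue-nonspecific alkaline phosphatase, was at 73.7 ± 11.1, 133 ± 15.9, 188 ± 46.7 and 352 ± 33.8 CPM in the same order. Fbln5, an elastic fibre protein, was at 9.27 ± 1.95, 24.8 ± 7.39, 43.2 ± 12.3 and 215 ± 15.9 CPM. The capillary water channel Aqp1 went the other way, at 1916 ± 427, 1207 ± 405, 947 ± 302 and 505 ± 176 CPM. For these 4 genes, members with exactly 2 UMIs lay between the cells with 1 UMI and the other members. This did not hold for every marker: Efnb2, a ligand of arterial identity, was at 86.4, 136, 132 and 155 CPM and Dll4 at 165, 158, 156 and 175 CPM in the same order.

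The label was checked against the marker genes within each library, as log2 ratios of (CPM + 1) in arterial over capillary cells. Of the 9 arterial markers that the rule did not read, 8 were higher in arterial cells in all 5 libraries, the exception being the Notch ligand Dll4, and the median ratio was 1.64. Over 4314 genes of at least 5 log2 CPM, 1060 were higher in all 5 libraries, 775 lower, and the median was 0.01. Of the markers outside the rule, Fbln5 had a mean log2 ratio of 4.12 ± 0.30 (SD, n = 5), Sema3g, a secreted semaphorin, 2.57 ± 0.27, Alpl 2.08 ± 0.16 and Sox17 1.05 ± 0.13. Sox17 was at 282 and 283 CPM in the arterial cells of the controls and at 249, 301 and 308 CPM in those of the disease libraries, and at 128, 125, 117, 167 and 153 CPM in the capillary cells of the same libraries. Of 9 capillary markers, Car4, Rgcc and Gpihbp1 chose the capillary class and were lower in arterial cells by construction. The other 6 were also lower in all 5 libraries, with a median of -0.55, but they were not absent: Fabp4 and Cd36 were among the abundant transcripts of both classes. Dll4 was at 171 CPM in arterial and 165 CPM in capillary cells, and Jag2 at 78.3 and 77.3 CPM, so these 2 Notch ligands did not separate the classes.

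Of 7 venous markers, 4 were higher in arterial than in capillary cells in all 5 libraries, with a median log2 ratio of 1.61: Vwf and Vcam1, which the capillary rule limits, Nr2f2 and Lrg1. The summed venous markers of arterial cells were at 218 to 259 CPM in controls and 302 to 348 CPM in disease libraries, without overlap. The summed arterial markers did not overlap either, at 2400 to 2497 and 2619 to 2792 CPM, and neither did 44.1% of the single genes tested. The part of the venous markers in the comparison of genotypes was not tested. Without cells that carry mural or lymphatic UMIs, described next, 3 of the 7 venous markers were still higher in all 5 libraries, with a median of 0.71. The venous sums then still did not overlap (213 to 257 against 314 to 355 CPM), and the arterial sums did (2329 to 2503 against 2497 to 2810 CPM).

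Markers of mural cells, the smooth muscle cells and pericytes that wrap vessels, and of lymphatic endothelium were also higher. All 8 mural markers were higher in arterial than in capillary cells in all 5 libraries, with a median log2 ratio of 3.74. Their summed level was 2207 to 2935 CPM in the arterial cells of the controls and 2727 to 3742 CPM in those of the disease libraries, with no marker at 0. Of 7 lymphatic marker entries, which count Ccl21a under more than 1 gene ID, 6 were higher in all 5 libraries, at a summed 437 to 442 CPM in controls and 317 to 750 CPM in disease libraries. This RNA came from few barcodes. At least 3 UMIs over 7 mural genes were found in 267 members (10%), with a median depth of 8149 UMIs, and at least 2 UMIs over 4 lymphatic genes in 31 members (1.16%). In capillary cells those shares were 0.412% and 0.108%. The other 2368 members had a median depth of 3567 UMIs. Scrublet, a doublet caller, marked 1.32 to 4.12% of the retained cells of a library and between 0 and 4 of its arterial cells, which were kept.

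Without the 267 and 31 cells, a choice made after seeing the data, the median log2 ratio of the mural markers was 0.28 and that of the lymphatic markers 0. The filter reads most of these markers, so their fall was largely fixed in advance. Of the 9 arterial markers outside the rule, 8 were still higher in all 5 libraries with a median of 1.31. Mixed barcodes of 2 cells and single cells that express mural genes cannot be told apart here. Among the 15 largest ratios over capillary cells in all members, the smooth muscle genes Acta2, Tagln, Myh11, Myl9 and Tpm2, the mural receptor Notch3 and the lymphatic genes Ccl21a and Mmrn1 appeared. In the cells without mural or lymphatic UMIs none of these 8 did, which the filter largely fixes, since Acta2, Tagln, Myh11, Ccl21a and Mmrn1 are among the genes it reads. Both rankings were limited to genes of at least 5 log2 CPM in arterial cells, which can leave out genes with larger ratios. Beside Stmn2, Hey1 and Gja4, the leading genes in the cells without mural or lymphatic UMIs were Fbln5, Vwf, Eps8l2, Clu, Tgfb2, Prss23, Nebl, Edn1, Col8a1, Alox12, Sema3g and Cox4i2. Vwf, which encodes von Willebrand factor, was at 57.5 CPM in these arterial cells against 3.7 CPM in capillary cells, whose rule limits Vwf. Clu, which encodes the chaperone clusterin, was at 113 against 11.4 CPM, and Edn1, the vasoconstrictor endothelin 1, at 52.3 against 7.72 CPM.

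**Figure D1:**
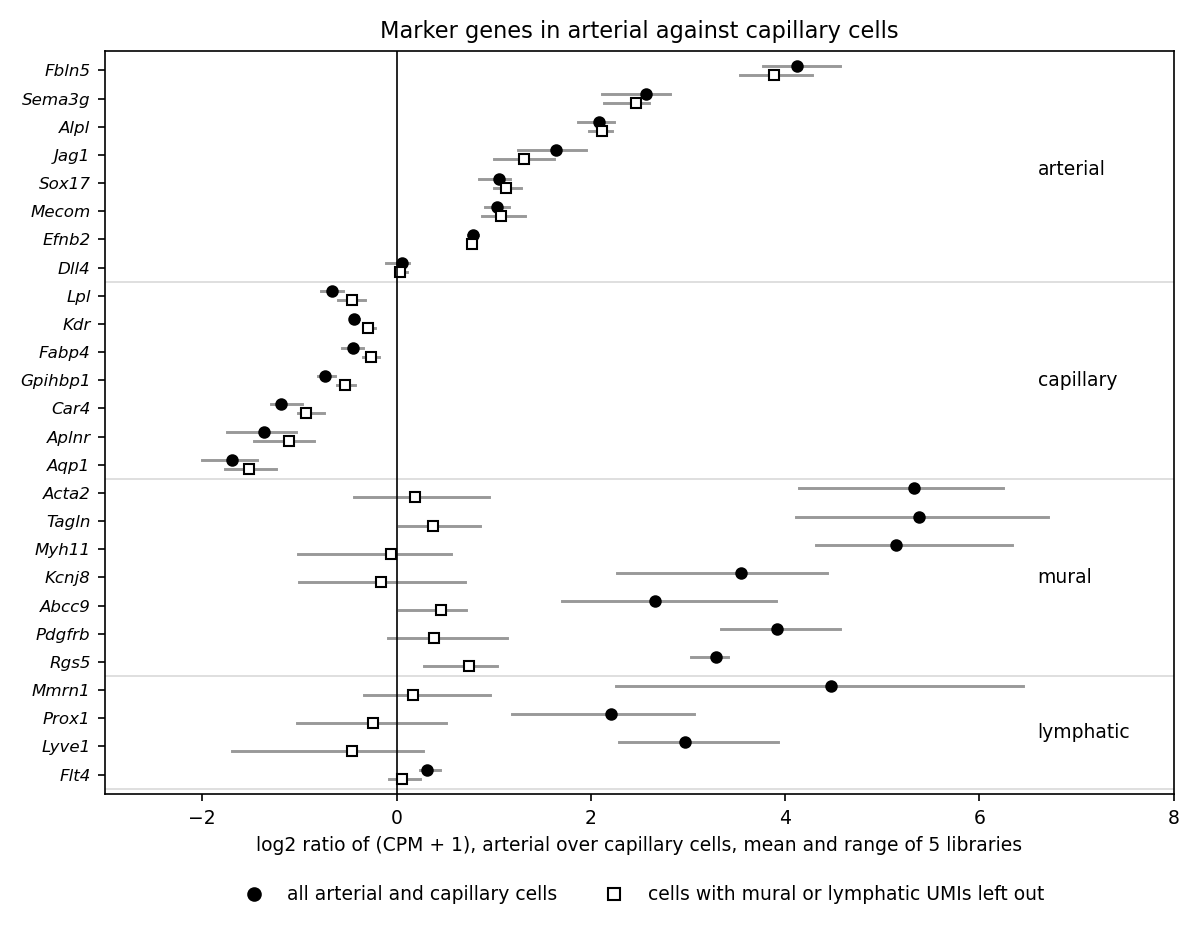
Log2 ratio of (CPM + 1) in arterial over capillary cells for arterial, capillary, mural and lymphatic marker genes (points, mean of 5 libraries; grey lines, range), for all cells (circles) and without cells that carry mural or lymphatic UMIs (squares). Fbln5, Sema3g, Alpl, Jag1, Sox17, Mecom and Efnb2 keep a positive ratio in both versions, while the mural genes shown fall from a mean above 2 to below 1. The filter reads most of the mural genes shown, which largely fixes their fall.

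Arterial cells varied among themselves along the same genes. Cells with a Gja5 UMI and no mural or lymphatic UMIs numbered 38 and 44 per control library, against 45, 23 and 46 per disease library, or 6.81 to 8.03% of the arterial cells, with median depths of 3449 to 4785 UMIs. They were compared with the cells without a Gja5 UMI in the same libraries, as a description without a test because Gja5 is in the rule. Of 27 arterial identity genes outside the rule with at least 5 log2 CPM, 23 were higher in Gja5 cells in all 5 libraries and 1 was lower, with a median log2 ratio of 0.69. All 9 capillary markers were lower in all 5 libraries, with a median of -0.79. Over 4221 genes, 390 were higher, 404 were lower and the median was -0.04.

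The genes with large ratios in Gja5 cells included Fbln5, at 535 CPM in cells with and 103 CPM in cells without a Gja5 UMI, with within-library log2 ratios of 1.99 to 2.66. Sema3g was at 365 and 102 CPM (1.60 to 2.05). Ace, which encodes angiotensin-converting enzyme, was at 124 and 28 CPM (1.15 to 2.88), and Vegfc, a growth factor for lymphatic vessels, at 212 and 76 CPM (0.92 to 2.03). Capillary genes were lower but present. Aqp1 was at 128 CPM in Gja5 cells and 747 CPM in the others (-2.78 to -2.26), and Car4, carbonic anhydrase 4 of the capillary surface, at 68.3 and 396 CPM (-3.29 to -1.64). The Notch ligand Dll4, which did not separate arterial from capillary cells, was higher in Gja5 cells by a mean log2 ratio of 0.54 (0.11 to 0.74).

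**Figure D2:**
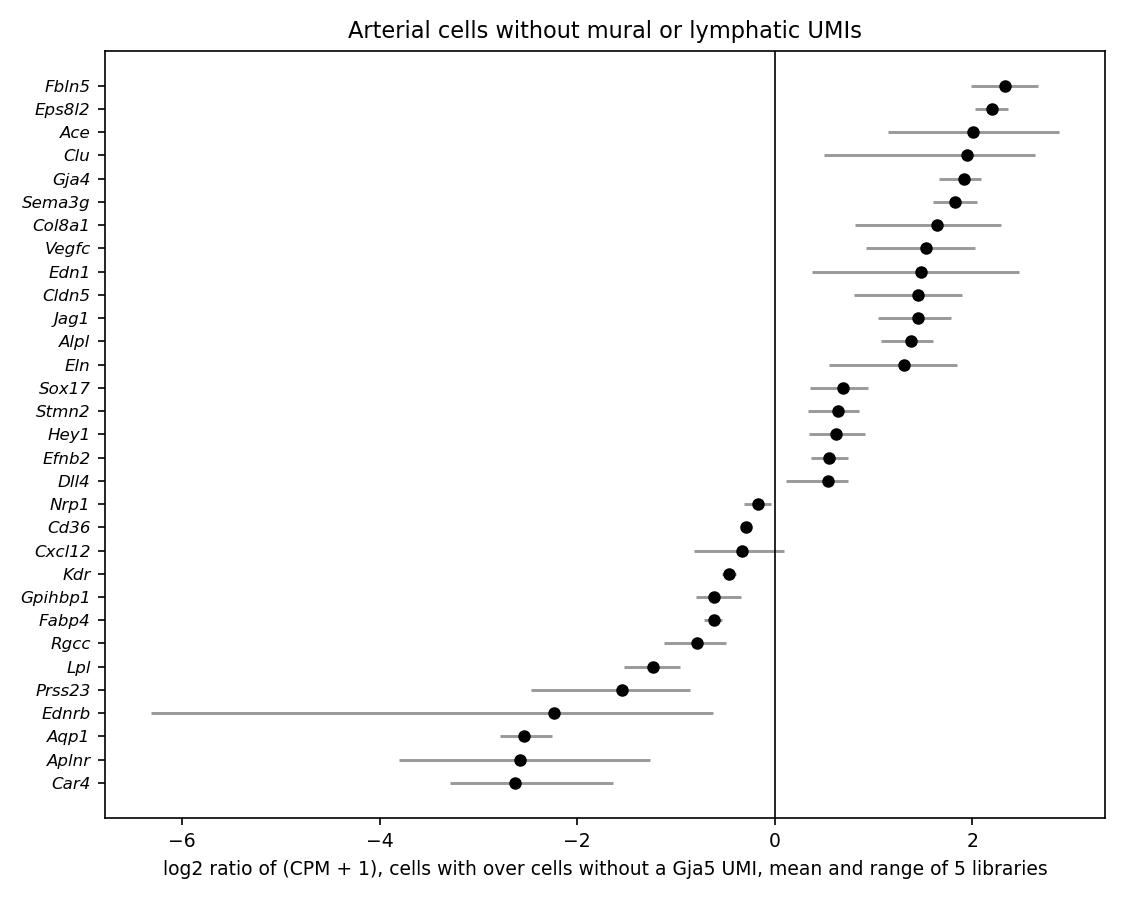
Log2 ratio of (CPM + 1) in arterial cells with over those without a Gja5 UMI, mean (points) and range (lines) of 5 libraries, without cells that carry mural or lymphatic UMIs; Stmn2, Hey1 and Gja4 are genes of the rule. Fbln5 and Sema3g lie right of 0 in every library and the capillary genes Aqp1, Car4, Fabp4 and Lpl left of 0.

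The number of arterial cells was then compared between genotypes. Of the endothelial cells, 22.6% were arterial in control replicate 1 and 22.7% in control replicate 2, against 27.3% in disease replicate 3, 16.7% in disease replicate 4 and 23.7% in disease replicate 5. The 95% Wilson intervals, which cover counting error only, ran from 21 to 24.3% and from 21.1 to 24.4% for the controls, and from 25.5 to 29.2%, from 15 to 18.5% and from 22.2 to 25.3% for the disease libraries. The controls thus fell within the spread of the disease libraries, and the difference of the means was -0.08 percentage points (22.6 ± 0.0632% against 22.6 ± 5.41%, SD). The two-sided exact permutation test gave p = 1, and this design of 2 against 3 libraries cannot go below 0.1. Since the rule needs 2 UMIs and cells of disease replicate 4 were shallow, cells were also thinned to 1500 UMIs. This left out 640 and 822 shallower retained cells of control replicates 1 and 2 and 506, 1459 and 893 of disease replicates 3, 4 and 5, the most in disease replicate 4. Control shares were then 10.5 and 12.1% and disease shares 15.1, 11.9 and 14.9% (difference 2.62 points, exact permutation p = 0.3). Without disease replicate 4 the unthinned difference was 2.86 points, and without disease replicate 3 it was -2.46 points.

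**Figure D3:**
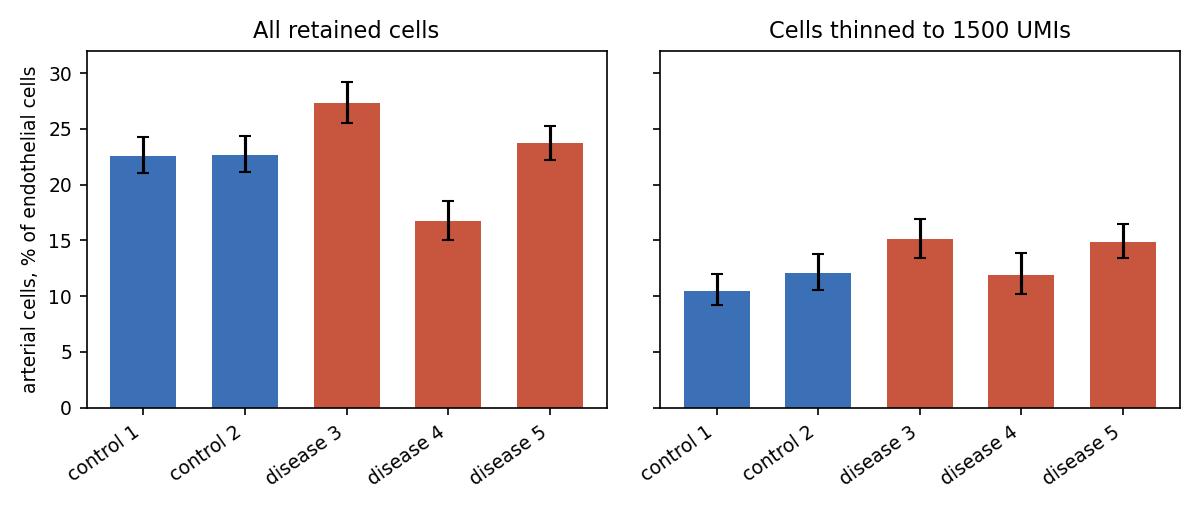
Arterial cells as a percentage of endothelial cells in each library (bars, with 95% Wilson intervals), in all retained cells and after thinning to 1500 UMIs per cell. Disease replicate 4 has the lowest share before thinning, at 16.7%, and lies within the range of the other libraries after it.

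Gene expression was compared between genotypes on counts summed over the arterial cells of each library, using the quasi-likelihood test of edgeR, with p-values adjusted over all genes tested (Benjamini-Hochberg). A gene was called at an adjusted p under 0.05. Of 10790 genes, 1231 (11.4%) were called, 59 higher (0.547%) and 1172 lower (10.9%) in disease. At an unadjusted p under 0.05 there were 2663. In capillary cells the same test called 47 of 11138 genes higher (0.422%) and 1221 lower (11%). After TMM scaling, which centres the fold changes, 5467 genes were above 0 and the median log2 fold change was 0.01. All disease libraries lay beyond all control libraries for 44.1% of the genes, 19.6% upward and 24.6% downward.

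Among called genes whose groups did not overlap and whose mean level reached 5 log2 CPM, the 8 with the largest rises were Dbp, Tsc22d3, Per1, Fmo2, Ednrb, Stc1, Gstt1 and Eln. Fmo2, a flavin monooxygenase, was at 56.9 and 70.93 CPM in control hearts against 109.4, 101.3 and 139.8 CPM in disease hearts (log2 fold change 0.88, SE 0.18, edgeR adjusted p 0.0173). Stc1, the secreted glycoprotein stanniocalcin 1, was at 49.19 and 39.36 CPM against 77.36, 73.8 and 76.8 CPM (0.78, SE 0.15, edgeR adjusted p 0.0125). Ednrb, the endothelin receptor B, was at 43.68 and 49.76 CPM against 86.36, 81.52 and 76.47 CPM (0.80, SE 0.14, edgeR adjusted p 0.00828). Gstt1, a glutathione transferase, rose by 0.78 on the log2 scale (SE 0.19, edgeR adjusted p 0.0311). The groups did not overlap for any of these, which the rule required. Calls were lost without control replicate 1 (Fmo2, Ednrb, Gstt1, Eln), control replicate 2 (Fmo2, Stc1, Gstt1, Eln, Per1), disease replicate 3 (Gstt1) and disease replicate 5 (Fmo2, Stc1, Gstt1, Eln, Per1). Gstt1 was also not called with DESeq2 (0.80) or with the GC offset (0.68). Of the 8 genes, 3 were higher in capillary than in arterial cells: Ednrb at 128 against 67.5 CPM, Fmo2 at 182 against 95.5 CPM and Gstt1 at 43.6 against 34.7 CPM.

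The falls chosen by the same rule were larger. Ccdc85b was at 368.2 and 469 CPM in control hearts against 12.95, 0.8581 and 4.595 CPM in disease hearts (log2 fold change -5.89, SE 0.63, edgeR adjusted p 0.00787). Cox5a, a subunit of cytochrome c oxidase, was at 421.4 and 334.6 CPM against 17.99, 19.74 and 15.43 CPM (-4.43, SE 0.16). The histone gene H2afj had a log2 fold change of -5.16, the mitochondrial ribosomal gene Mrps24 -4.85, Scand1 -4.77 and Hint2 -4.62. Rnaset2a and Rnaset2b, near-identical copies between which reads can be split, had -4.57 and -4.95. Ccdc85b was not called without control replicate 1 or without control replicate 2. These falls were not particular to arterial cells: all 8 genes were lower in every disease library than in every control library in capillary cells, in fibroblasts and in leukocytes too. Over the genes tested in arterial cells, that held for 26% in fibroblasts and 22.3% in leukocytes, and the share was not counted in capillary cells. Ccdc85b was at a mean of 71.4 CPM in control and 0.647 CPM in disease fibroblasts, and at 40.5 and 0.61 CPM in leukocytes. Of the 8 rises, 7 were higher in all disease libraries in capillary cells, 5 in fibroblasts and 1 in leukocytes, against 25.8% and 10.9% of all genes tested in the last 2 classes. That share was not counted in capillary cells, so the 7 there has no background beside it.

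The log2 fold change across 6893 genes was related to the base composition of the transcript start (Spearman rho -0.404 with the GC content of the first 300 nucleotides, across genes, which are not independent replicates). The median GC content was 64.7% in genes called lower, 55.9% in genes called higher and 57.8% in those not called. With an offset that removed a smooth trend on this GC content in each library, 102 genes were higher and 986 lower, of which 974 were among the 1231. Of 54 genes called in arterial cells and named here, 42 were still called. What produced the relation was not tested. The 5 libraries list the same genes and name the same Cell Ranger version in their file headers. Whether their preparation, sequencing and other settings were also the same is not given in the sources used here, and the part of these in the large falls was not tested.

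Of 35 arterial identity genes, 3 were called higher and 6 lower, and their median log2 fold change was 0.09. Over all genes 0.547% were called higher and 10.9% lower, with a median of 0.01. The 4 genes of the rule were not called, and neither were Sox17, at 289.6 and 287.8 CPM in control hearts against 253, 292.6 and 307.2 CPM in disease hearts (log2 fold change -0.02, SE 0.12, edgeR adjusted p 0.938), Alpl (0.00, SE 0.13), Sema3g (0.22, SE 0.12), Efnb2 (-0.03, SE 0.12) or Fbln5 (-0.03, SE 0.13). For these 5 genes the SE of 0.12 to 0.13 leaves room for changes of that order.

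The smallest adjusted p-values in this list were those of the SoxF factors other than Sox17. Sox18 was at 638 and 747.9 CPM in control hearts against 114.8, 101.3 and 159.5 CPM in disease hearts (log2 fold change -2.46, SE 0.20, edgeR adjusted p 0.000378). Sox7 was at 162.6 and 180.8 CPM against 83.48, 96.11 and 82.38 CPM (-0.98, SE 0.13, edgeR adjusted p 0.00169). Both fell, with no overlap between the groups, while Sox17 of the same subfamily did not differ beyond its error. The transcript starts of Sox18 and Sox7 had 71.7% and 67.7% GC and that of Sox17 had 54.7%. With the GC offset Sox18 was at -2.11 and Sox7 at -0.61, both still called. Sox18 fell in capillary cells by a like amount (-2.42), and the difference between the classes was -0.06 (SE 0.10, edgeR adjusted p 0.995).

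Cxcl12, a chemokine of arterial endothelium that binds Cxcr4, was at 2952 and 3457 CPM in control hearts against 1197, 666.8 and 592.4 CPM in disease hearts (log2 fold change -1.97, SE 0.35, edgeR adjusted p 0.0334). Every disease library was below both controls, and disease replicate 3 was the highest of the 3. Without control replicate 1, control replicate 2, disease replicate 4 or disease replicate 5, Cxcl12 kept its direction and was no longer called, as was the case with every gene of at least 1 count in the test. Vegfc (141.7 and 139.6 against 88.88, 52.34 and 50.21 CPM, -1.13, SE 0.25, edgeR adjusted p 0.034) and Igfbp3, which binds insulin-like growth factors (151.2 and 227.6 against 102.9, 82.38 and 119.8 CPM, -0.89, SE 0.22, edgeR adjusted p 0.0444), also fell. The taurine transporter Slc6a6 fell by 0.62 on the log2 scale (edgeR adjusted p 0.00969) and was not called with the GC offset (-0.31), like Vegfc (-0.80). Vegfc and Slc6a6 were not called without either control replicate or without disease replicate 5, Vegfc also not without disease replicate 4, and Igfbp3 not without control replicate 2 or any 1 of the disease replicates. With at least 3 UMIs of the arterial genes neither Vegfc nor Igfbp3 was called, and Vegfc was not called with a mitochondrial maximum of 5%.

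Eln, which encodes elastin, was at 34.5 and 30.45 CPM in control hearts against 50.38, 60.07 and 53.83 CPM in disease hearts (log2 fold change 0.74, SE 0.16, edgeR adjusted p 0.0208). It was the 1 gene called of 30 elastic fibre and basement membrane genes, whose median was 0.17, beside 0.547% higher and 10.9% lower over all genes. Without cells that carry mural or lymphatic UMIs its log2 fold change was 0.68 and it was not called (edgeR adjusted p 0.0685). The summed mural markers, at 2207 to 2935 CPM in controls and 2727 to 3742 CPM in disease libraries, overlapped between the groups. The other 2 arterial identity genes called higher were Rbp7, a retinol-binding protein (0.48, edgeR adjusted p 0.0456), and Crip1 (0.32, edgeR adjusted p 0.0341). Neither was called without the mural or lymphatic cells, with DESeq2, with the GC offset, with a mitochondrial maximum of 5% or with equal cell numbers. Eln, Rbp7 and Crip1 also missed the threshold without either control replicate or without disease replicate 5, and Crip1 without disease replicate 3.

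Of 30 genes of Notch signalling, none was called higher and 2 were called lower, and the median was 0.19. These counts are near the shares over all genes, 0.547% higher and 10.9% lower. Both that fell act in receptor cleavage: Aph1a, a scaffold subunit of gamma-secretase (134 and 138.9 against 77, 42.05 and 55.14 CPM, log2 fold change -1.21, edgeR adjusted p 0.0133), and Adam10, the sheddase (100.9 and 106.2 against 73.76, 62.64 and 57.76 CPM, -0.68, edgeR adjusted p 0.0204), which was not called with the GC offset (-0.33). Among ligands, Dll4 was at 152 and 147.8 CPM in control hearts against 168.8, 191.4 and 198.2 CPM in disease hearts, without a call (0.31, SE 0.12, edgeR adjusted p 0.157). Jag1 was at 57.26 and 45.68 against 46.06, 72.08 and 69.58 CPM, with overlap. Among receptors, Notch1 was at 0.30 (SE 0.11) and Notch4 at 0.26 (SE 0.19), and among targets Hey1 was at 0.01 (SE 0.26), Hes1 at 0.49 (SE 0.16) and Nrarp at -1.13 (SE 0.30), all without a call. Nrarp was called lower with DESeq2 (-1.11), with a mitochondrial maximum of 5% (-1.30), with equal cell numbers (-1.10) and without control replicate 1 (-1.53), and Hes1 was called higher with every gene of at least 1 count (0.48) and without disease replicate 3. Aph1a and Adam10 were not called without either control replicate or without disease replicate 5, and Adam10 also not with DESeq2, a mitochondrial maximum of 5% or equal cell numbers.

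In the list of flow response and vascular tone, 2 of 28 genes rose and 1 fell, with a median of 0.22, beside 0.547% higher and 10.9% lower over all genes. Ednrb rose, as given above, and Cavin2, a coat protein of caveolae, rose by 0.34 (edgeR adjusted p 0.0365), a call lost with DESeq2 (0.37), with the GC offset (0.23) and without the mural or lymphatic cells (0.33). Mef2a, a transcription factor, was at 202.6 and 226.5 CPM against 144.6, 136.4 and 131.6 CPM and fell by 0.64 (edgeR adjusted p 0.00828). Klf2, the flow-induced factor that maintains quiescent endothelium, was at 660 and 843.7 CPM in control hearts against 1033, 408.5 and 1083 CPM in disease hearts. Disease replicate 4 was the lowest of the 5 and the other 2 disease libraries the highest, and Klf2 was not called (0.17, SE 0.48). Without disease replicate 4 Klf2 was called higher (0.49, edgeR adjusted p 0.031). Klf4 (0.23, SE 0.10), Nos3, endothelial nitric oxide synthase (-0.32, SE 0.12), and Edn1 (-0.63, SE 0.20) were not called. Edn1 was called lower with every gene of at least 1 count (-0.63), with at least 3 UMIs of the arterial genes (-0.67) and with equal cell numbers (-0.94). Among 15 junction genes none rose, and 2 catenins fell: Jup, plakoglobin, from 305.4 and 320.1 to 155.1, 154.5 and 185.8 CPM (-0.92, edgeR adjusted p 0.00189), and Ctnnb1, beta-catenin, from 571.2 and 650.2 to 427.1, 396.4 and 419.4 CPM (-0.56, edgeR adjusted p 0.00964). The gap junction genes Gja4 (-0.05, SE 0.26) and Gja5 (0.34, SE 0.15) were not called. Mef2a and Ctnnb1 were not called without control replicate 2 or without disease replicate 5, Cavin2 in addition without control replicate 1 or disease replicate 3, and Ednrb without control replicate 1.

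**Figure D4:**
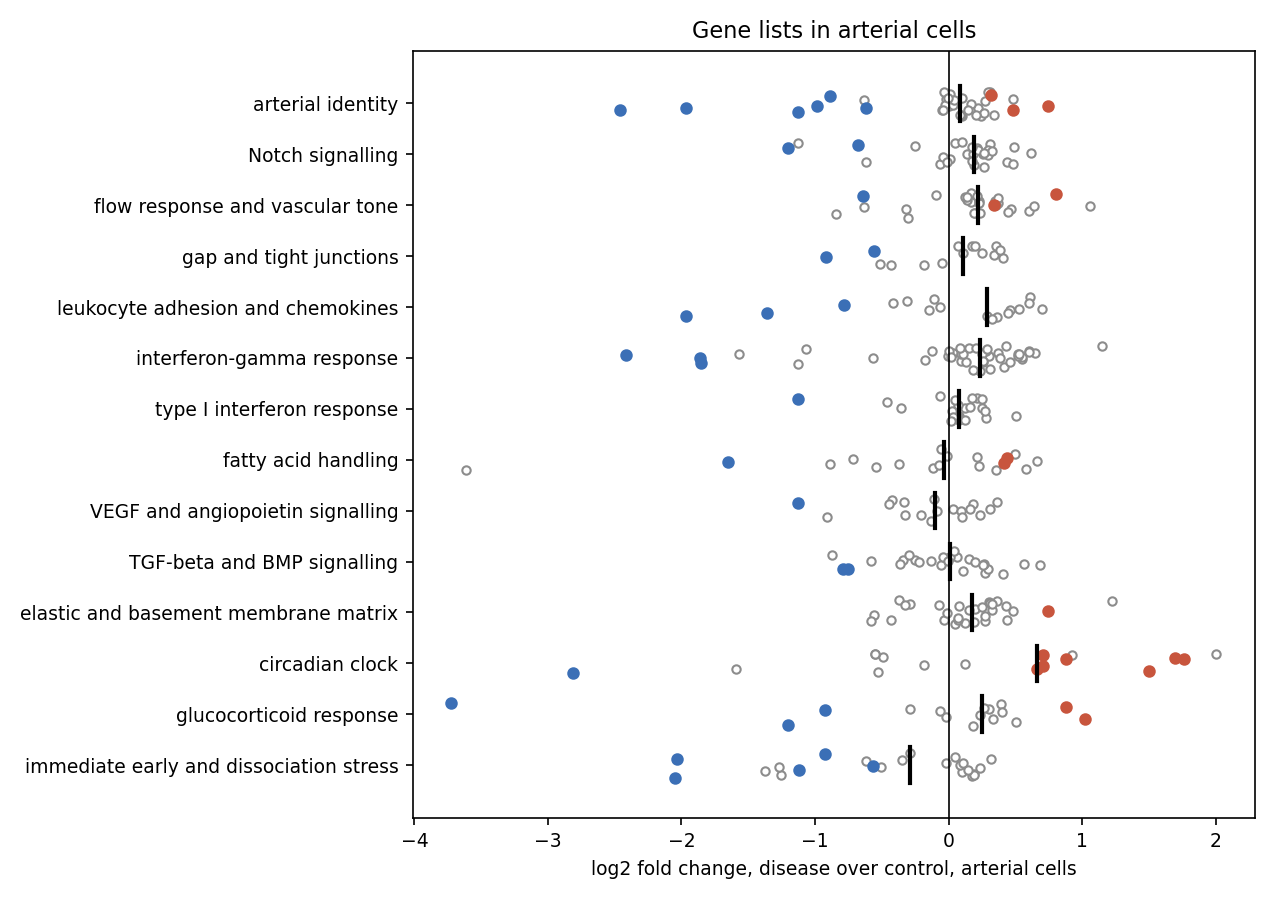
Log2 fold changes in arterial cells, disease over control, of the genes in 14 lists (points; vertical bars, median of a list). Filled red points were called higher and filled blue points called lower by edgeR at an adjusted p under 0.05, and open points were not called. The circadian clock list has the highest median, at 0.66.

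The interferon-gamma programme, which inflamed endothelium can express, was measured through 43 genes, of which none was called higher and 3 were called lower, with a median of 0.23. With 0.547% of all genes called higher and 10.9% called lower, these counts are near the background. Gbp2, a guanylate-binding protein, was at 280.1 and 189 CPM in control hearts against 213.4, 599 and 266.2 CPM in disease hearts (log2 fold change 0.60, edgeR adjusted p 0.586). Cxcl9, which the rule limits, was at 54.33 and 43.08 CPM against 44.62, 99.54 and 63.01 CPM. Disease replicate 4 was the highest library for both genes, and the other disease libraries lay within or near the controls. Disease replicate 4 also had the highest summed T cell markers in arterial cells, at 70.7 CPM against 4.38 to 28.9 CPM in the controls and 5.68 and 12.8 CPM in the other disease libraries, and the highest macrophage markers, at 220 CPM against 53.3 to 163 CPM in the controls. None of the 5 T cell and 6 macrophage markers was at 0, and their part in the result was not tested. The rule, which leaves out cells with 5 or more UMIs of Cxcl9 and Cxcl10, removes the cells with most of these 2 chemokines from every library.

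The 3 genes of this list that fell were H2-D1, Ifngr2 and Socs1. H2-D1, an MHC class I heavy chain, was at 4208 and 3305 CPM in control hearts against 624.3, 874.4 and 616.7 CPM in disease hearts (log2 fold change -2.42, SE 0.19, edgeR adjusted p 0.000545). Its neighbour in function, H2-K1, was at 3235 and 2313 against 1347, 810.9 and 645.9 CPM (-1.57, SE 0.37, edgeR adjusted p 0.0784) and missed the threshold, which it passed with DESeq2 and without disease replicate 3. Class I genes are a family of close copies, so counts can be split among them. The light chain B2m was at 3011 and 2208 against 2390, 3444 and 2005 CPM (0.00, SE 0.27), so no change was measurable in the light chain. Ifngr2, a chain of the interferon-gamma receptor, was at 35.24 and 35.28 against 11.15, 8.581 and 8.861 CPM (-1.86, SE 0.20, edgeR adjusted p 0.00075), and Socs1, an inhibitor of the pathway, at 40.74 and 34.54 against 7.196, 14.59 and 11.16 CPM (-1.85, SE 0.27, edgeR adjusted p 0.00292). H2-D1 was also lower in leukocytes, at a mean of 3348 CPM in control and 655 CPM in disease libraries. Ifngr2 was lower in every disease library in leukocytes, at means of 87.7 and 16.7 CPM, and in fibroblasts, at 39.7 and 11.3 CPM.

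Of 22 type I interferon genes tested, 1 was called, the nucleotide kinase Cmpk2, which fell by 1.13 (edgeR adjusted p 0.00481). Isg15 was at 821.1 and 663.2 CPM against 643, 964.5 and 740.8 CPM, with overlap. Among 17 adhesion and chemokine genes tested, none rose and 3 fell, beside 0.547% higher and 10.9% lower over all genes: Cxcl12, the leukocyte ligand Cd47 (349.8 and 366.5 against 141.8, 144.2 and 132.6 CPM, -1.36, SE 0.10, edgeR adjusted p 0.000132) and Csf1, a macrophage growth factor (60.57 and 57.56 against 29.51, 38.62 and 36.1 CPM, -0.78, edgeR adjusted p 0.0185). The adhesion molecules Icam1, at 285.6 and 263.7 against 247.2, 437.6 and 327.2 CPM (0.29, SE 0.23), and Vcam1, at 52.86 and 23.77 against 38.86, 96.97 and 47.92 CPM (0.61, SE 0.55), were not called. In both, disease replicate 4 was the highest library. Csf1 was not called with DESeq2 (-0.75), with the GC offset (-0.63), without either control replicate or without disease replicate 5. The falls of Cd47 and Cxcl12 were also seen, without overlap, in fibroblasts and leukocytes. Cd47 was at means of 458 CPM in control and 197 CPM in disease fibroblasts and at 247 and 85.1 CPM in leukocytes. Cxcl12 was at 250 and 79.9 CPM in fibroblasts and at 19.5 and 7.03 CPM in leukocytes.

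Fatty acid genes are a mark of capillary endothelium. Fabp4, a fatty acid carrier, was at 18190 and 17200 CPM in control hearts against 23320, 25070 and 23440 CPM in disease hearts (log2 fold change 0.44, SE 0.07, edgeR adjusted p 0.00571). Gpihbp1, which holds lipoprotein lipase on the vessel wall, was at 1461 and 1543 against 1878, 2138 and 1983 CPM (0.41, SE 0.09, edgeR adjusted p 0.0256). Of 18 genes tested these 2 rose and 1, the acyl-CoA synthetase Acsl3, fell (-1.65), and the median was -0.03, beside 0.547% higher, 10.9% lower and a median of 0.01 over all genes. The sum of the 9 capillary markers moved with the groups: it was 25478 to 25694 CPM in the arterial cells of the controls and 31821 to 35580 CPM in those of the disease libraries. In capillary cells it was 37526 to 39081 and 42714 to 51741 CPM. Without mural or lymphatic cells it was 28427 to 29748 and 36033 to 42146 CPM in arterial cells. Fabp4 alone makes most of these sums, and not every marker rose. Kdr was at 1031 and 980.4 CPM in the arterial cells of the controls against 816.1, 811.8 and 775.5 CPM in disease libraries, without a call. Aplnr overlapped between the groups. The part of capillary RNA in the 2 rises was not tested. Fabp4 was still called with the GC offset (0.29, edgeR adjusted p 0.0331), and Gpihbp1 was not (0.31). Fabp4 was not called without control replicate 2, nor Gpihbp1 with DESeq2, with a mitochondrial maximum of 5% or without any 1 library other than disease replicate 4, and Acsl3 was not called without mural or lymphatic cells. Among growth factor signalling genes, Vegfc was the 1 called of 18 in the VEGF and angiopoietin list, and the TGF-beta and BMP list had 2 falls among 27, the receptors Acvrl1 (247.4 and 235.4 against 146.4, 143.3 and 139.8 CPM, -0.75, edgeR adjusted p 0.00239) and Tgfbr2 (107.2 and 109.9 against 62.25, 64.36 and 62.03 CPM, -0.79, edgeR adjusted p 0.00381). Tgfbr2 was not called with the GC offset (-0.48). The counts of both lists are near the 10.9% called lower over all genes.

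The largest share of calls among the lists was in the circadian clock. The clock is a feedback loop in which Arntl and Clock bind E-box sequences and switch on Per genes, Nr1d1, Ciart and the output factors Dbp, Tef and Hlf, while Nr1d1 represses Arntl. Of 17 clock genes tested, 7 were called higher and 1 lower, and the median log2 fold change was 0.66, against 0.547% and 10.9% called and a median of 0.01 over all genes. The core activator Arntl was at 15.05 and 15.97 CPM in control hearts against 1.079, 3.432 and 2.626 CPM in disease hearts (-2.81, SE 0.38, edgeR adjusted p 0.00218). Its partner Clock was at 48.82 and 56.07 against 36.7, 40.33 and 31.84 CPM, with no overlap and no call (-0.55, SE 0.17, edgeR adjusted p 0.081).

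Dbp was at 123.3 and 133.3 CPM in control hearts against 307.6, 340.7 and 442.4 CPM in disease hearts (1.50, SE 0.17, edgeR adjusted p 0.000906). Hlf was at 10.28 and 10.77 against 42.82, 29.18 and 33.8 CPM (1.76, edgeR adjusted p 0.00197), and Tef at 33.4 and 47.16 against 63.33, 67.79 and 66.62 CPM (0.71, edgeR adjusted p 0.0395). All 3 are related leucine zipper factors, and all 3 rose. Of the repressors, Ciart was at 11.38 and 10.03 against 32.38, 37.76 and 35.12 CPM (1.70, edgeR adjusted p 0.00103). Per1 was at 47.72 and 40.48 against 83.48, 71.22 and 87.63 CPM (0.88, edgeR adjusted p 0.00848). Nr1d1 was at 100.9 and 108.8 against 153.6, 176.8 and 184.8 CPM (0.71, edgeR adjusted p 0.00949). Bhlhe40 was at 81.86 and 70.18 against 118.7, 130.4 and 112.9 CPM (0.66, edgeR adjusted p 0.0169). Calls were lost without control replicate 1 (Tef, Nr1d1), control replicate 2 (Per1, Nr1d1, Bhlhe40), disease replicate 3 (Tef) and disease replicate 5 (Tef, Per1, Nr1d1, Bhlhe40), and Tef was not called with DESeq2 or without mural or lymphatic cells. Arntl thus fell while the 7 other clock genes called rose. In fibroblasts these genes moved the same way without overlap, against 25.8% higher and 26% lower over all genes tested. Dbp was at means of 42.1 CPM in control and 138 CPM in disease fibroblasts, and Arntl at 42.6 and 13.1 CPM. In leukocytes Arntl was lower (18 and 6.86 CPM) and Per1 higher (43.4 and 69.9 CPM) without overlap, and the others overlapped. The remaining clock genes tested were not called in arterial cells, among them Clock, Per2 (0.92, SE 0.33) and Rora (-0.53, SE 0.16). Per2 and Clock were called without disease replicate 4 and Per2 with the GC offset. The time of day at which hearts were collected is not given in the sources used here, so genotype and time of collection cannot be told apart.

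**Figure D5:**
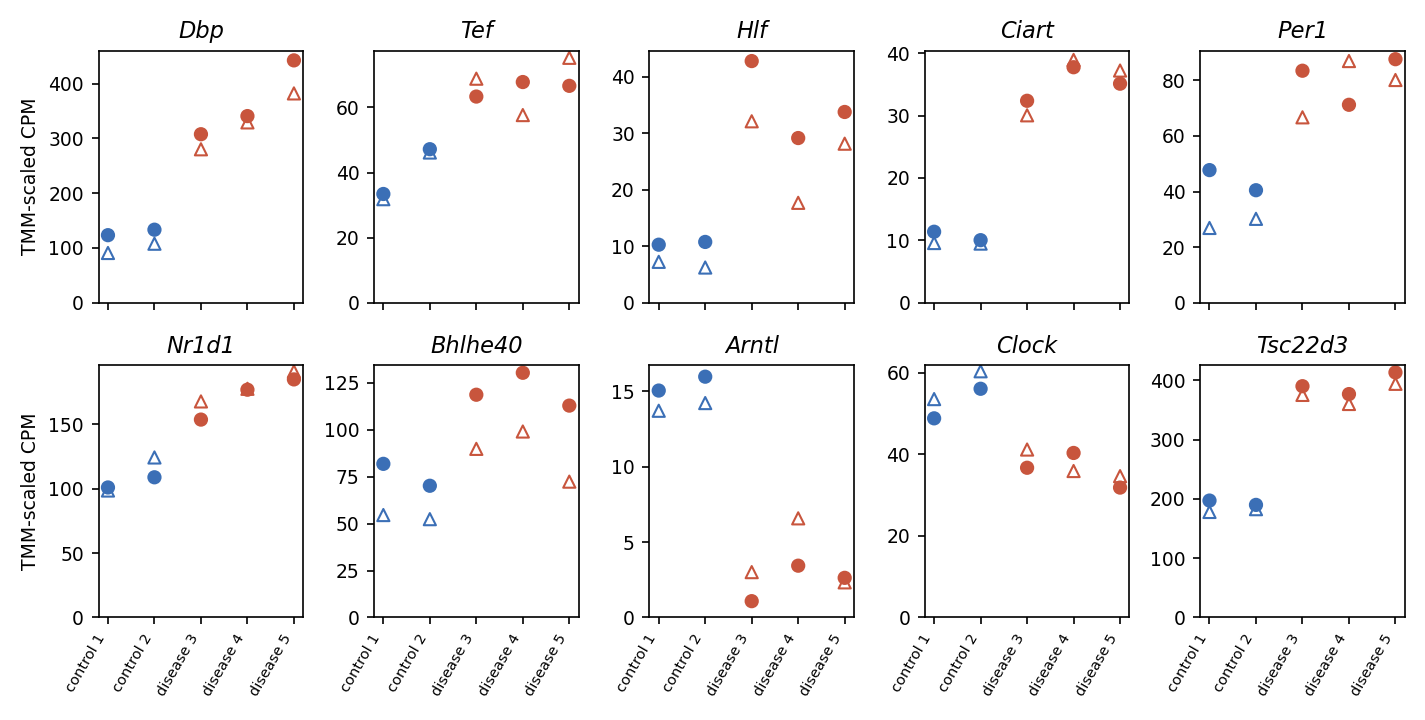
TMM-scaled CPM of 9 clock genes and Tsc22d3 in each library, in arterial cells (filled circles) and capillary cells (open triangles), controls in blue and disease libraries in red. Dbp, Tef, Hlf, Ciart, Per1, Nr1d1, Bhlhe40 and Tsc22d3 are higher and Arntl and Clock lower in every disease library in arterial cells.

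The upstream sequences of the clock genes called were read to show the element through which Arntl and Clock act. In the 250 bases before the start, from RefSeq on build GRCm38.p6, 7 of the 8 clock genes called had an entry and 3 of them (Ciart, Per1 and Tef) held the E-box CACGTG, which reads the same on both strands. It occurs before 6.86% of 27025 genes. The D-box TTANGTAA was found in none of the 7 and before 2.44% of all genes, and the half-site AGGTCA of the Nr1d1 and Ror receptors, searched on both strands, in Per1 and before 15.76%. Tef has 2 starts, each with 1 E-box, and Ciart has 3 E-boxes in its window. The windows shown are 30 bases, written 5′ to 3′ on the strand of the gene, with the E-box in capitals. A match is a description of the sequence and not a binding site.
Ciart, chr3:95882327-95882356, minus strand, 116 bases before the start: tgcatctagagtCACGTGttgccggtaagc
Ciart, chr3:95882269-95882298, minus strand, 58 bases before the start: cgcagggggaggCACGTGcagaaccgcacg
Ciart, chr3:95882255-95882284, minus strand, 44 bases before the start: cgtgcagaaccgCACGTGtctgggaggggg
Per1, chr11:69098771-69098800, plus strand, 166 bases before the start: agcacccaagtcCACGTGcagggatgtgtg
Tef, chr15:81802534-81802563, plus strand, 127 bases before the start: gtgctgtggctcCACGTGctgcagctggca
Tef, chr15:81811264-81811293, plus strand, 138 bases before the start: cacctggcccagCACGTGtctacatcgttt
Dbp, Nr1d1, Hlf and Arntl had no CACGTG in this window, which says only that these letters are not there.

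Glucocorticoid-responsive genes moved in both directions. Tsc22d3, which encodes the glucocorticoid-induced leucine zipper protein, was at 197.1 and 189.8 CPM in control hearts against 390, 376.7 and 413.2 CPM in disease hearts (log2 fold change 1.02, SE 0.10, edgeR adjusted p 0.000543), and Per1 rose as given above. Cebpd, a transcription factor, was at 276 and 192.7 against 15.47, 13.73 and 22.32 CPM (-3.72, SE 0.24, edgeR adjusted p 0.000115). Errfi1 (-1.20, edgeR adjusted p 0.00307) and the phosphatase Dusp1 (-0.93, edgeR adjusted p 0.00224) fell too. Of 16 genes tested 2 rose and 3 fell, with a median of 0.25. Cebpd was also lower in fibroblasts, at a mean of 747 CPM in control and 56 CPM in disease libraries. Of 23 immediate early and dissociation stress genes, none rose and 5 fell, with a median of -0.29, beside 0.547% higher and 10.9% lower over all genes. These were Atf3 (926.1 and 660.6 against 179.6, 181.9 and 220.2 CPM, -2.03, edgeR adjusted p 0.000247), the heat shock cochaperone Dnajb1 (495.5 and 399.2 against 132.1, 84.09 and 105.7 CPM, -2.05, edgeR adjusted p 0.000626), Socs3 (-1.12), Dusp1 and Egr1 (-0.57). Socs3 was not called without control replicate 1 or disease replicate 5, and Egr1 not without control replicate 2, disease replicate 3 or disease replicate 5, and neither with the GC offset. Egr1 was also not called with DESeq2, and Socs3 not with a mitochondrial maximum of 5%. Such genes respond to tissue digestion, and their part in the other results was not tested.

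Whether arterial cells responded differently from capillary cells of the same libraries was tested with a class by group term and the library as a block. Of 11365 genes, 1 (0.0088%) was called, and 586 had an unadjusted p under 0.05. DESeq2 called 0, with 46 at an unadjusted p under 0.05. The 1 gene was Ccl4, a chemokine of leukocytes, whose mean level was below the minimum of 5 log2 CPM set for named genes and which is named because it was alone. It was at 17.21 and 7.051 CPM in the arterial cells of the controls and at 9.351, 29.9 and 5.572 CPM in those of the disease libraries, and at 13.35 and 2.444 against 37.28, 95.81 and 7.07 CPM in capillary cells (difference of the log2 fold changes -2.22, SE 0.38, edgeR adjusted p 0.039). Disease replicate 4 was the highest library in both classes. The call was lost without control replicate 1 (-3.09) or disease replicate 4 (-2.10). Without cells that carry mural or lymphatic UMIs the difference was -2.22 with an edgeR adjusted p of 0.79.

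For the genes described above the differences between the classes did not pass the test, and the values are given side by side. Under alternatives, Fabp4 was called without disease replicate 4 and Fmo2 with every gene of at least 1 count. Aqp1 was called under both of these and without disease replicate 3. Dbp had log2 fold changes of 1.50 in arterial and 1.73 in capillary cells (difference -0.27, SE 0.10, edgeR adjusted p 0.951). Per1 had 0.88 and 1.44 (difference -0.55, SE 0.18, edgeR adjusted p 0.885). Arntl had -2.81 and -1.93 (difference -0.81, SE 0.49). Ednrb had 0.80 and 0.43 (difference 0.31, SE 0.13), Eln 0.74 and 0.29 (difference 0.38, SE 0.26) and Fabp4 0.44 and 0.31 (difference 0.10, SE 0.05). Of 35 arterial identity genes, 0 were called in this test and 2 had an unadjusted p under 0.05, against 586 of 11365 over all genes. Of 17 clock genes 0 were called and 4 had an unadjusted p under 0.05. On simulated counts this test recovered 76.2% of differences of 2 on the log2 scale and 2.99% of differences of 1. Those counts were drawn separately for each class, at a fixed dispersion and without a library effect shared by both classes. The shares thus set no detection limit for the genes above, whose SEs were 0.05 to 0.49.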

How the data were processed

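Sorted cells of digested hearts were measured with the 10x Genomics 5-prime chemistry, version 1.1, per the labels' protocols. The authors deposited raw UMI counts per gene and barcode, and per the file headers they used Cell Ranger 3.1.0. The submitters' processing notes list Cell Ranger 3, Seurat 3, mm10 and GRCh38 with no role. The members and gene lists were chosen with earlier results of these data known. Counts were summed per library over the cells of each class and tested by the quasi-likelihood F test of edgeR 4.0.16 (R 4.3.3) after filterByExpr and TMM scaling. Each SE was taken as the absolute log2 fold change divided by the root of F. CPM beside a fold change use TMM library sizes, and CPM in descriptions of classes use plain totals. All genes of 14 lists could be named, and beyond them the 8 largest rises and falls with an adjusted p under 0.05, at least 5 log2 CPM and no overlap between groups. The 15 largest ratios over capillary cells, at the same minimum level in arterial cells, could be named too. Alternatives used DESeq2 1.42.0, Scrublet in scanpy 1.11.5, other filters and each library left out. GC content came from GENCODE transcripts. The aligner and annotation are not given in the sources used here. On simulated counts the disease against control test of arterial cells recovered 46.9% of changes of 1 and 93.3% of changes of 2 on the log2 scale. Wilson intervals have a level of 95% and cover counting error only.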

Additional observations from a re-analysis of the deposited data

Results flagged for a closer look

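Ccl4 differed between arterial and capillary cells in its response to genotype by the test of the difference itself, with a difference of log2 fold changes of -2.22 (SE 0.38, edgeR adjusted p 0.039). Its log2 fold change was 0.05 in arterial and 2.47 in capillary cells, and neither was called alone. The adjusted p ranged from 2.42e-07 with every gene of at least 1 count to 1 with DESeq2.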

How the results depend on the processing

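The difference of the arterial share was -0.08 points and changed sign with a mitochondrial maximum of 5% (1.32), after thinning (2.62), without mural or lymphatic cells (0.17) and over arterial and capillary cells only (1.53). Leaving out 1 library gave -2.46 to 2.86. No exact p was below 0.3. The count of calls in arterial cells was 679 to 1377 with 1 library left out, lowest without disease replicate 5 and at 686 without control replicate 2. Genes higher numbered 30 with DESeq2, 120 with every gene of at least 1 count, 102 with the GC offset and 9 to 98 with 1 library left out. Genes lower numbered 669 to 1279 with 1 library left out. Every one of the 1231 calls that was measured kept its direction under each alternative. Of 54 named calls 26 were kept under every alternative, 4 higher (Dbp, Ciart, Hlf and Tsc22d3) and 22 lower. Without control replicate 2 or disease replicate 5, 23 of the 54 were lost. Of 38 named genes without a call, 14 changed sign under at least 1 alternative. The count for the difference between classes was 0 with DESeq2, 12 with every gene of at least 1 count, 3 with as many capillary as arterial cells, 0 without mural or lymphatic cells and 0 to 6 with 1 library left out. The cause of these changes was not tested. The alternatives on mural or lymphatic cells and on other denominators were chosen after seeing the data. No paired analysis was possible because the groups share no replicate numbers.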
